A study of Mus musculus with 6 samples.

Results

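The common gamma chain cytokine receptors were followed in 6 thymic tumours of mice deficient in Ikaros, with 1 microarray for each. The members are the shared gamma chain Il2rg and the chains that pair with it or assist it, Il2rb, Il7r, Il4ra, Il9r, Il21r, Il2ra and Il15ra, and their probe sets were taken by gene symbol. Of these 8 genes, 7 had a probe set with exactly that symbol, 13 probe sets in all among 45101 on the array, where 18194 genes had a symbol. No probe set carried the symbol Il2rg in the annotation used, and this gene was not analysed here. All 6 mice were of genotype IkL/L, homozygous for a hypomorphic allele of the Ikaros gene, and carried a CD4-Cre transgene, which acts from the stage at which thymocytes start to express CD4. In 3 of them, aged 18 to 20 weeks, Notch1 was wild type (Notch1+/+). In the other 3, aged 8 to 10 weeks, both Notch1 alleles were floxed (Notch1f/f), and their tumours were labelled as carrying a deletion of the Notch promoter and exon 1. Age and genotype cannot be told apart in this design. The tumours came from separate mice and were not sorted, so cells other than the lymphoma cells contributed RNA.

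The receptors of this family bind IL-2, IL-4, IL-7, IL-9, IL-15 and IL-21, and each of them signals through the gamma chain, which carries the kinase JAK3, and a partner chain, which carries JAK1. The kinases activate STAT proteins, mainly STAT5 for IL-2, IL-7, IL-9 and IL-15, STAT6 for IL-4 and STAT3 for IL-21. In the thymus, IL-7 receptor signals keep the earliest T cell precursors alive. Il7r is switched off as cells become double positive for CD4 and CD8 and is expressed again in mature thymocytes, while Il2ra, which encodes CD25, marks precursors in which Notch1 is active.

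Values are MAS5 intensities, a linear signal per probe set that the authors scaled to the same trimmed mean on each array. A difference is Notch1f/f minus Notch1+/+ of log2(intensity + 16), a scale that makes changes of dim genes look smaller. It is given with its standard error (SE) and a p-value from limma, adjusted by the Benjamini-Hochberg method over all 27022 probe sets tested. T cell markers were high in all tumours. Cd3e, a chain of the T cell receptor complex, had 1277 to 1636 in Notch1+/+ and 1648 to 2853 in Notch1f/f tumours, and Thy1 had 3657 to 4962 across the 6. Of 9 T cell markers tested, 7 had a difference above 0, against 45.0% of all probe sets, with a median of 0.32. None of the 9 passed adjustment. Any 2 arrays correlated at 0.918 to 0.962. The actin control, whose ratio of 3' to 5' signal rises when RNA is degraded or labelled short, had a ratio of 2.23 in Notch1+/+ tumour 1 and of 1.35 to 1.64 in the other 5 tumours. The 18S ribosomal RNA control was higher on all Notch1f/f arrays, at 249.5 to 318.9 against 64.8 to 125.1 for its 3' probe set.

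None of the 7 receptor genes differed between the genotypes past an adjusted p of 0.05. The limma adjusted p-values of the 13 probe sets ran from 0.332 to 0.974, and 0.0185% of all probe sets tested passed. At an unadjusted p under 0.05 there were 2 probe sets, 1 of Il4ra that was higher in the Notch1f/f tumours and 1 of Il9r that was lower, where 5.94% of all probe sets were higher and 7.60% lower at that level. The groups did not overlap in 1 of the 13, the same Il4ra probe set, higher in the Notch1f/f tumours. Among all probe sets, 8.13% were higher without overlap and 10.4% lower without overlap. These shares of all probe sets also stand as background for the counts of the gene lists below. All 13 receptor probe sets passed the filter on dim values. Taking for each gene the probe set with the highest mean, 3 receptors had a difference above 0 and 4 below, with a median of -0.11, against a median of -0.01 over all genes tested. The members thus gave no shared direction, and the account below turns on single receptors and single tumours.

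**Figure D1:**
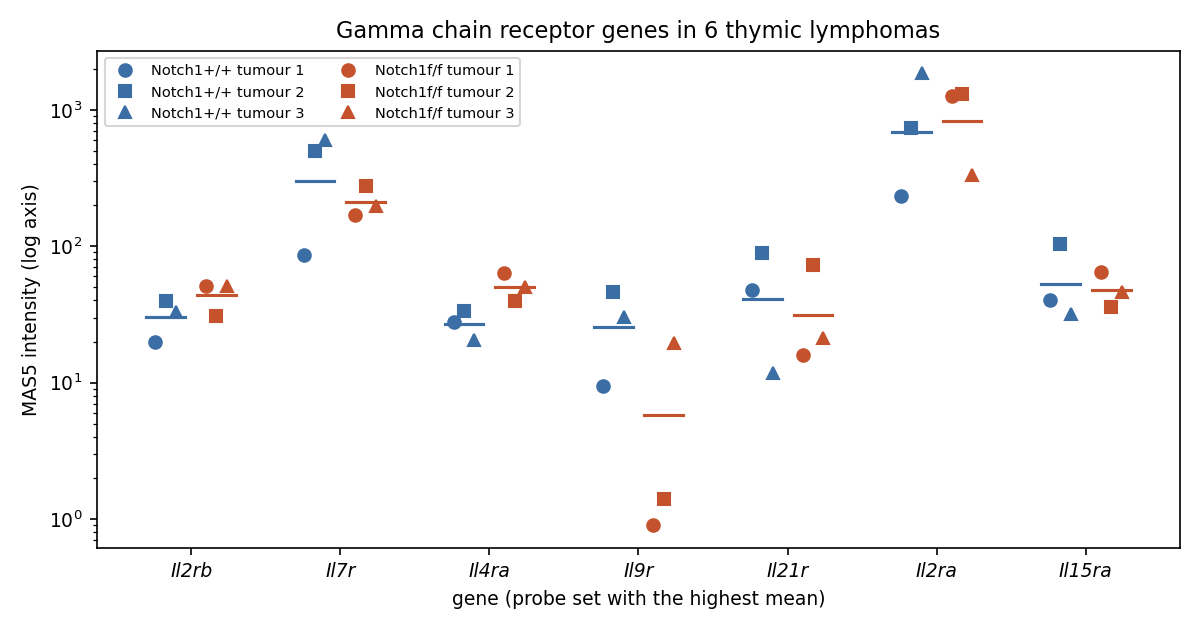
MAS5 intensity (log axis) of the 7 receptor genes in each tumour, for the probe set with the highest mean of each gene. Blue points are Notch1+/+ and orange points Notch1f/f tumours, circles, squares and triangles are tumours 1, 2 and 3, and the short lines are group means taken on the log2(intensity + 16) scale. The groups are apart only for Il4ra, and Notch1+/+ tumour 1 is the lowest of the 6 for Il7r and Il2ra.

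**Figure D2:**
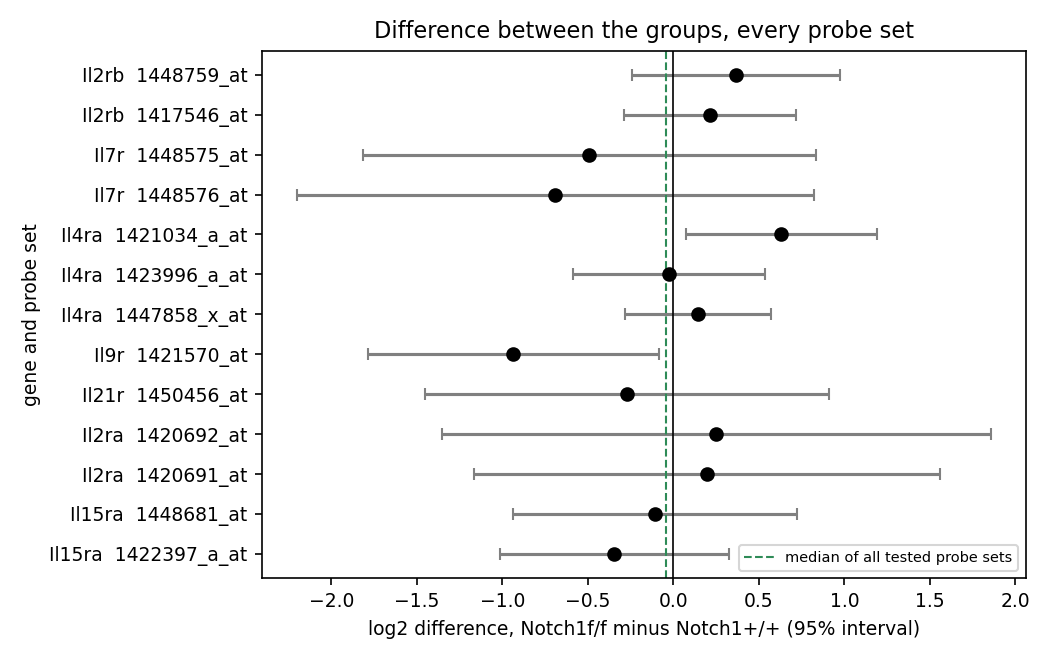
Log2 difference, Notch1f/f minus Notch1+/+, of the 13 receptor probe sets (points) with 95% intervals from the limma fit (lines). The dashed line is the median of all 27022 probe sets tested, at -0.04. The intervals of Il7r and Il2ra are the widest, and those of 1 Il4ra and the Il9r probe set lie to one side of 0 before adjustment.

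Il7r, the chain that binds IL-7 and also TSLP, varied more among the Notch1+/+ tumours than among the Notch1f/f tumours. Its intensity on probe set 1448575_at was 86.8, 495 and 599 in Notch1+/+ tumours 1, 2 and 3, and 171, 278 and 196 in Notch1f/f tumours 1, 2 and 3. Notch1+/+ tumour 1 was thus the lowest of all 6 and Notch1+/+ tumours 2 and 3 the highest, with the Notch1f/f tumours between them, so the ranges overlap. The group means were 215 ± 55.9 (SD, n = 3) in Notch1f/f and 394 ± 271 in Notch1+/+. The highest Notch1+/+ tumour exceeded the lowest 6.90-fold, and the highest Notch1f/f tumour exceeded the lowest 1.63-fold. Whether the spread differs between the genotypes was not tested. The log2 difference was -0.49 ± 0.59 (SE), with a 95% interval from -1.82 to 0.83 and a limma adjusted p of 0.733. The second probe set, 1448576_at, gave 15.8, 163 and 219 in the Notch1+/+ tumours and 43.4, 91.0 and 34.0 in the Notch1f/f tumours. It placed the same tumour lowest and the same 2 tumours highest, with a log2 difference of -0.69 ± 0.67 (limma adjusted p = 0.669).

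Single tumours set the size of the Il7r difference. Leaving out Notch1+/+ tumour 1 gave a difference of -1.31 on the first probe set (limma adjusted p = 0.161). Leaving out Notch1+/+ tumour 3 gave -0.02 (limma adjusted p = 0.994), leaving out Notch1+/+ tumour 2 gave -0.15 (limma adjusted p = 0.956), and weighting the arrays gave -0.95 (limma adjusted p = 0.319). Notch1+/+ tumour 1, the lowest in Il7r and in Il2ra, also had the highest 3' to 5' ratio of the actin control, and the part of this ratio in the values of both genes was not tested. Fewer Il7r-expressing cells and less Il7r RNA per cell cannot be told apart in these bulk samples, here or for the other receptors.

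Il2ra encodes CD25, the alpha chain that gives the IL-2 receptor its high affinity and does not itself signal. On probe set 1420692_at it had 232, 740 and 1851 in Notch1+/+ tumours 1, 2 and 3, and 1263, 1303 and 333 in Notch1f/f tumours 1, 2 and 3. Each group held at least 1 tumour with a low and 1 with a high value, and the group means lay close together, at 966 ± 549 (SD, n = 3) in Notch1f/f and 941 ± 828 in Notch1+/+. The log2 difference was 0.25 ± 0.71 (SE), with a 95% interval from -1.35 to 1.86 (limma adjusted p = 0.896), an interval wide enough for a change of more than 2-fold in either direction. The second probe set, 1420691_at, had 74.2, 205 and 538 in the Notch1+/+ tumours and 335, 320 and 126 in the Notch1f/f tumours, with a difference of 0.20 ± 0.60 (limma adjusted p = 0.903). The sign of the Il2ra difference turned with the choice of tumours. It became -0.50 when Notch1+/+ tumour 1 was left out, -0.05 when this was done for Notch1f/f tumour 1 and -0.08 for Notch1f/f tumour 2. It was 0.95 when Notch1+/+ tumour 3 was left out and 0.88 for Notch1f/f tumour 3.

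The same 2 genes were among the most variable transcripts between tumours of one genotype. The SD within groups of log2(intensity + 16) was 1.29 for Il2ra and 1.03 for Il7r, above that of 99.4% and 98.7% of all probe sets tested. Il21r followed at 0.89, above 97.8%, and Il9r at 0.63, above 92.8%. Il15ra had 0.55, above 88.9%. Il4ra, at 0.24, and Il2rb, at 0.31, lay in the bulk of the distribution. The scale makes the spread of dim probe sets look smaller, and these genes differ in level. The mean level was above that of 95.6% of probe sets for Il2ra and 87.1% for Il7r. It was above that of 63.2% for Il4ra and 62.9% for Il2rb. The part of level in these ranks was not tested. Il7r and Il2ra did not always vary together. Notch1+/+ tumour 1 was low for both and Notch1+/+ tumour 3 high for both, while Notch1f/f tumour 1 paired a high Il2ra with a low Il7r. The log2 ratio of Il7r to Il2ra, taken from log2(intensity + 16), averaged -1.89 ± 1.06 (SD, n = 3) under Notch1f/f and -1.15 ± 0.53 under Notch1+/+. The ratio was -2.78, -2.17 and -0.72 in Notch1f/f tumours 1, 2 and 3, and -1.27, -0.56 and -1.60 in Notch1+/+ tumours 1, 2 and 3, so that Notch1f/f tumour 3 lay among the Notch1+/+ tumours. The difference of -0.74 did not pass the exact two-sided permutation test (p = 0.3), which cannot go under 0.1 with 3 tumours against 3. It became -1.33 when Notch1f/f tumour 3 was left out and -0.30 when Notch1f/f tumour 1 was.

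**Figure D3:**
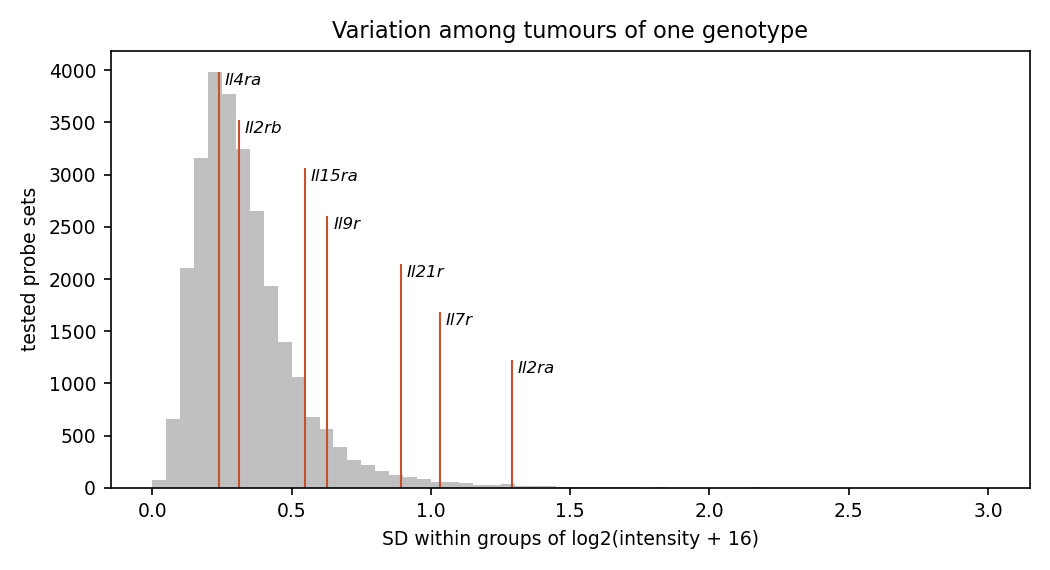
Distribution of the SD within groups of log2(intensity + 16) over the 27022 probe sets tested (grey bars), with the 7 receptor genes marked by orange lines whose heights only separate the names. Il2ra, Il7r and Il21r lie in the right tail, at 1.29, 1.03 and 0.89.

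The RefSeq promoters of Il7r, Il2ra and Il4ra are shown because these receptors carry the results of the comparison: the first pair varied most between tumours and the last was the one whose groups did not overlap. Each sequence runs 5' to 3' on the gene's strand and ends before the first transcribed base of the gene model (build GRCm38.p6). Capitals mark a match to a searched motif on either strand.
Il7r, chr15:9529942-9530126, minus strand: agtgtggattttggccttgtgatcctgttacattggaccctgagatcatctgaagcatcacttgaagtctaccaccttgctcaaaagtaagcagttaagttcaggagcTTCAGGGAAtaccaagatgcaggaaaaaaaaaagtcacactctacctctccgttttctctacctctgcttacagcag
Il2ra, chr2:11642542-11642791, plus strand: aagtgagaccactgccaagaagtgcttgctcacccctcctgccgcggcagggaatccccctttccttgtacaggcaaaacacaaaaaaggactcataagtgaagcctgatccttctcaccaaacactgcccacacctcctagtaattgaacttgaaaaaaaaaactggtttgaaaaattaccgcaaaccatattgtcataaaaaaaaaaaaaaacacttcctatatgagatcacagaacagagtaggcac
Il4ra, chr7:125552021-125552270, plus strand: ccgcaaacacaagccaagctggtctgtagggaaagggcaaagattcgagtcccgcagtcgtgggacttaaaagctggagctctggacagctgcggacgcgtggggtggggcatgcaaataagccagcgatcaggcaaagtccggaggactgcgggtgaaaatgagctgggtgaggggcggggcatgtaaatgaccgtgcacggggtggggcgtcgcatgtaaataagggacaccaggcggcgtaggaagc
The motifs searched were TGGGAA, the core that Ikaros shares with the Notch partner CSL, TTCNNNGAA, the palindrome read by STAT proteins, and GTAAACA, read by FOXO factors. They were sought in windows from 250 bases before to 50 bases after the start, of which RefSeq gave 8 for 7 of the receptor genes and none for Il2rb. TTCNNNGAA was found in 1 of these windows, that of Il7r, as TTCAGGGAA, and in 8.30% of 32851 windows of the same length. TGGGAA was found in 1 of the 8, that of Il2rg, and in 25.6% of all windows. GTAAACA was found in 1 of the 8, that of Il21r, on the opposite strand, and in 3.65% of all windows. A match of letters is no evidence of binding.

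Il4ra, the chain that binds IL-4 and, with a partner outside the family, IL-13, was the receptor whose groups did not overlap, on 1 of its 3 probe sets. On probe set 1421034_a_at it had 28.0, 33.3 and 20.4 in Notch1+/+ tumours 1, 2 and 3 and 63.6, 39.9 and 49.9 in Notch1f/f tumours 1, 2 and 3. The lowest Notch1f/f tumour, tumour 2, exceeded the highest Notch1+/+ tumour by a small margin. The means were 51.1 ± 11.9 (SD, n = 3) in Notch1f/f and 27.2 ± 6.48 in Notch1+/+. The log2 difference was 0.63 ± 0.25 (SE), 1.55-fold, with an unadjusted limma p of 0.0311 and an adjusted p of 0.332, which does not pass. The exact two-sided permutation test gave p = 0.1, the smallest it allows. The other 2 Il4ra probe sets did not show this pattern. Probe set 1423996_a_at had 18.1, 24.1 and 9.5 in Notch1+/+ and 17, 23.5 and 9.4 in Notch1f/f tumours, a difference of -0.02 ± 0.25 (limma adjusted p = 0.974). Probe set 1447858_x_at had 4.8 to 12.9 in Notch1+/+ and 7.1 to 11.6 in Notch1f/f tumours, with a difference of 0.15 ± 0.19 (limma adjusted p = 0.760). Averaged over the 3 probe sets, the Il4ra difference was 0.25.

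Il4ra is expressed by macrophages and B cells as well as T cells, and in the Notch1f/f tumours several markers of both had higher values. Of 10 macrophage markers tested, 7 were higher at an unadjusted limma p under 0.05, where 5.94% of all probe sets were. None was lower, against 7.60% of all probe sets, and none passed after adjustment. The summed intensity of the list was 268 to 974 in the Notch1+/+ tumours and 1512 to 2954 in the Notch1f/f tumours, and C1qa, a complement subunit made by macrophages, had 21.1 to 135 against 229 to 420. Of 6 B cell markers tested, 2 were higher at that level and none was lower. Their list summed to 353 to 1106 in Notch1+/+ and 1327 to 3472 in Notch1f/f tumours, most of it from Ighm, the heavy chain of IgM. Ighm did not follow the other markers in every tumour. Notch1+/+ tumour 1 had the highest Ighm of its group, at 1017, with Cd79a at 7.3 and Cd79b at 7.6. Cd79b had 7.6 to 26.4 against 37 to 64.8, while Ms4a1 reached at most 22.1 and Pax5 22.9. The part of these cells in the Il4ra values was not tested.

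Il9r, the chain that binds IL-9, was lower in the Notch1f/f tumours at an unadjusted p only. Its single probe set, 1421570_at, had 9.5, 45.9 and 30.2 in Notch1+/+ tumours 1, 2 and 3 and 0.9, 1.4 and 19.4 in Notch1f/f tumours 1, 2 and 3. Notch1f/f tumours 1 and 2 lay below every Notch1+/+ tumour, whereas Notch1f/f tumour 3 lay above Notch1+/+ tumour 1, so the groups overlap. Il9r passed the filter on dim values through the Notch1+/+ tumours, and the values of Notch1f/f tumours 1 and 2 cannot be told from background, so the size of the difference is uncertain. The log2 difference was -0.94 ± 0.38 (SE), with an unadjusted limma p of 0.0348, an adjusted p of 0.341 and an exact permutation p of 0.2. It depended on the pseudocount, at -2.46 with 1 and -0.37 with 64 in place of 16, and on the tumours, at -0.65 when Notch1+/+ tumour 2 was left out and -1.29 when Notch1+/+ tumour 1 was. IL-9 receptors are known from mast cells, and the 6 genes of the mast cell list were at intensities of 16 or less in every tumour. Cpa3 and Kit, which mast cells share with early thymocytes and which were listed with the latter, were highest in Notch1+/+ tumour 2, as was Il9r. Cpa3 had 26.6, 171 and 4.4 in Notch1+/+ tumours 1, 2 and 3 and 1.0 to 9.5 in the Notch1f/f tumours. Kit had 4.4, 25.4 and 3.0 in Notch1+/+ tumours 1, 2 and 3 and 6.1 to 11.7 in the Notch1f/f tumours. Neither was high in Notch1+/+ tumour 3, which had the second highest Il9r, and both were named after their values were seen. The part of such cells in the Il9r values was not tested.

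Il2rb, the signalling chain shared by the receptors of IL-2 and IL-15, had 20.0, 39.6 and 33.1 in Notch1+/+ tumours 1, 2 and 3 and 50.9, 30.9 and 51.2 in Notch1f/f tumours 1, 2 and 3 on probe set 1448759_at. Notch1f/f tumours 1 and 3 lay above all Notch1+/+ tumours, and Notch1f/f tumour 2 lay within their range. The log2 difference was 0.37 ± 0.27 (SE; limma adjusted p = 0.562), and the second probe set, 1417546_at, gave 0.21 ± 0.22 (limma adjusted p = 0.695). Il2rb is high in NK cells. Of 9 NK cell markers with a named probe set, 5 (Ncr1, Klrd1, Klre1, Klrk1 and Eomes) did not exceed 16 in any tumour. Of the 4 NK cell markers tested, 2 were higher in the Notch1f/f tumours and none lower at an unadjusted limma p under 0.05. Among all probe sets, 5.94% were higher and 7.60% lower. The 2 were Gzma, a granzyme, at 2711 to 4451 against 1584 to 2414, and Tyrobp, an adaptor that myeloid cells share. Nkg7 overlapped, at 4.6 to 66.5 in Notch1+/+ and 6.3 to 18 in Notch1f/f tumours. Prf1 overlapped as well, at 12.3 to 28.5 in Notch1+/+ and 11 to 26.1 in Notch1f/f tumours. None of the 4 passed adjustment.

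Il15ra, the alpha chain that binds IL-15 and presents it to other cells, had 40.3, 104 and 32.0 in Notch1+/+ tumours 1, 2 and 3 and 64.4, 35.6 and 46.3 in Notch1f/f tumours 1, 2 and 3 on probe set 1448681_at. Notch1+/+ tumour 2 was the highest and the others overlapped, with a log2 difference of -0.11 ± 0.37 (SE; limma adjusted p = 0.915). On probe set 1422397_a_at the same tumour was again the highest, at 50.9 against 14.7 to 22.7 in the other 5, and the difference was -0.34 ± 0.30 (limma adjusted p = 0.622). Without Notch1+/+ tumour 2 the first probe set had a difference of 0.29, so that 1 tumour decided its direction.

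Il21r, the chain that binds IL-21, had 47.5, 89.9 and 11.7 in Notch1+/+ tumours 1, 2 and 3 and 16, 73.1 and 21.2 in Notch1f/f tumours 1, 2 and 3 on probe set 1450456_at. Tumour 2 was the highest of each group. The log2 difference was -0.27 ± 0.52 (SE; limma adjusted p = 0.844), and it turned to 0.17 when Notch1+/+ tumour 2 was left out and to 0.01 when Notch1f/f tumour 1 was. Il4ra and Il21r are neighbours on chromosome 7, with 0 protein-coding genes between them, and so are Il2ra and Il15ra on chromosome 2. How the neighbours ordered the tumours depended on the probe set. Notch1f/f tumour 1 was the highest of all 6 for Il4ra on 1421034_a_at and the second lowest for Il21r, whereas Il4ra on 1423996_a_at shared its 3 highest tumours with Il21r, in the same order. Notch1+/+ tumour 3 was the highest for Il2ra on both probe sets and the lowest for Il15ra on 1448681_at, but not on 1422397_a_at.

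The cytokines themselves were at the floor of the array. Il2, Il4, Il7, Il9, Il15 and Il21 all stayed at 16 or less in every tumour and under the filter on dim values, with a highest value of 10.6, for Il21 in Notch1+/+ tumour 1. Il7, made by thymic epithelial and other stromal cells, had 0.4 to 7.3 in the Notch1+/+ tumours and 5.6 to 9.1 in the Notch1f/f tumours. Without detection calls, such values cannot be told from background. Of 7 thymic epithelial markers, 4 (Foxn1, Krt14, Psmb11 and Epcam) did not exceed 16 in any tumour. Krt5 reached 21.7, Krt8 reached 20, and Ly75, which dendritic cells share, had 32.7 to 109. Of 5 fibroblast markers tested, 0 had a difference above 0, against 45.0% of all probe sets, and the median was -0.87. Col1a2 was lower in the Notch1f/f tumours at an unadjusted limma p under 0.05, but its groups overlapped, at 53.3 to 978 against 13.2 to 71.3. None of the fibroblast markers passed adjustment.

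Of the 12 genes that carry the receptor signal, all were tested and 9 had a difference above 0. Over all probe sets, which can hold several per gene, this share was 45.0%. The median of the 12 genes was 0.23, against -0.01 over all genes tested. None of the 12 passed after adjustment, and 2 were higher and none lower at an unadjusted limma p under 0.05. Jak1, the kinase bound by the partner chains, had 688, 704 and 585 in Notch1+/+ tumours 1, 2 and 3 and 803, 838 and 1543 in Notch1f/f tumours 1, 2 and 3, without overlap (log2 difference 0.61 ± 0.26 SE, limma adjusted p = 0.353). Irs2, a docking protein of the IL-4 receptor and of insulin receptors, had 1.8 to 4.9 against 18.4 to 46.4, also without overlap, and did not pass (limma adjusted p = 0.198). All 3 Notch1+/+ values of Irs2 lay under the filter intensity of 7.60. Irs2, counted among the 2 and among the 9, thus passed the filter on dim values through the Notch1f/f tumours. The size of its difference is therefore not given. Jak3, the kinase of the gamma chain, had 24.9 to 103 against 64 to 138 and overlapped. Stat5a and Stat5b had differences of 0.00 and 0.26, and Stat6 of -0.19.

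The 12 target genes of STAT5 had a median difference of 0.25, with 9 above 0, and 2 were higher and none lower at an unadjusted limma p under 0.05, with none past adjustment. The groups did not overlap in 4, all higher in the Notch1f/f tumours, where 8.13% of all probe sets were higher without overlap. Mcl1, a survival factor, had 1097 to 1237 against 1558 to 1715, and Pim1, a kinase, had 151 to 176 against 200 to 340. The margin was small for Osm, a cytokine, at 30.8 to 37.3 against 39.6 to 44.2. It was also small for Pim2, at 52.3 to 62.3 against 63.1 to 82.5. Cish, a feedback inhibitor that STAT5 induces, did not follow these 4 genes, at 20.2 to 27.6 against 9.2 to 31.5 (log2 difference -0.09 ± 0.27 SE, limma adjusted p = 0.905). Socs1, another feedback inhibitor, had 34.8 to 67.6 against 66.1 to 102, and Bcl2, a survival gene downstream of IL-7, had 59.4 to 107 against 63.8 to 111. Myc, Ccnd3 and Cish were the 3 with a difference below 0, at -0.47, -0.18 and -0.09. Myc had 667 to 1198 against 419 to 945.

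Of 9 regulators of Il7r transcription tested, 2 were higher and none lower at an unadjusted limma p under 0.05, with none past adjustment and a median of -0.11. Foxo1, an activator of Il7r in T cells, had 225 to 341 in the Notch1+/+ tumours and 424 to 536 in the Notch1f/f tumours, without overlap (log2 difference 0.79 ± 0.23 SE, limma adjusted p = 0.274). Ets1, at 2513 to 3256 against 3797 to 4425, did not overlap either (0.51 ± 0.15, limma adjusted p = 0.281). Il7r itself was higher in 2 of the Notch1+/+ tumours than in any Notch1f/f tumour. Gfi1, a repressor of Il7r, had 608 to 675 against 455 to 700. In the same tumours, all 10 mature T cell genes tested had a difference above 0, with a median of 1.24 and 7 at an unadjusted limma p under 0.05. Over all probe sets, 45.0% had a difference above 0 and 5.94% were higher at that level. Of the mature T cell genes, Ccr7, a homing receptor, had 0.5 to 16.9 against 55.2 to 93.6 and S1pr1, which guides exit from the thymus, 6.4 to 27.6 against 49.1 to 72.1. Ccr7, counted among the 7, passed the filter on dim values through the Notch1f/f tumours, so the size of its difference is uncertain. Of the 12 immature thymocyte genes, 3 were higher (Dtx1, Notch3 and Hes1) and 1 lower (Rag2) at that level, with a median of -0.07. Neither these lists nor the receptors had a gene past adjustment.

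Regulatory T cells express Il2ra constitutively. Of 7 of their markers tested, 3 had a difference above 0 and 4 below, with a median of -0.02. At an unadjusted limma p under 0.05 there were 2 higher, Ctla4 and Il10, and none lower, and none passed adjustment. Foxp3, the defining factor, stayed at 10.9 or less in every tumour. Ctla4, an inhibitory receptor of activated and regulatory T cells, had 8.5 to 125 against 493 to 990 and was higher at an unadjusted limma p (log2 difference 3.35 ± 0.57 SE, limma adjusted p = 0.117). Its tumours were ordered otherwise than those of Il2ra, since Notch1f/f tumour 3 had the highest Ctla4 and the lowest Il2ra of its group.

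Receptors outside the family served as a comparison. Of 22 other class I cytokine receptors, 18 had a named probe set and 12 were tested, with a median difference of -0.08, 4 higher and none lower at an unadjusted limma p under 0.05 and none past adjustment. The 4 were Il3ra, the IL-3 receptor alpha chain, at 9.8 to 21.2 against 40.9 to 51.5, Csf2rb, the beta chain shared by IL-3, IL-5 and GM-CSF, at 7.1 to 39.1 against 41.2 to 71.9, Il6ra, at 2.5 to 9.8 against 13.5 to 19.4, and Crlf2. Il6ra passed the filter on dim values through the Notch1f/f tumours and did not exceed 19.4 in any tumour. The size of its difference is therefore uncertain. Il3ra and Csf2rb are also expressed by myeloid cells, whose markers were higher in the same tumours as given above, and the part of those cells was not tested. Crlf2 encodes the chain that joins Il7r in the TSLP receptor. It had 145, 102 and 130 in Notch1+/+ tumours 1, 2 and 3 and 285, 127 and 294 in Notch1f/f tumours 1, 2 and 3, with a log2 difference of 0.76 ± 0.33 (SE; limma adjusted p = 0.359). Notch1f/f tumour 2 lay within the Notch1+/+ range, so the groups overlap, and the tumours with the most Crlf2 were not those with the most Il7r. Whether the 2 receptor families differ from each other was not tested.

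**Figure D4:**
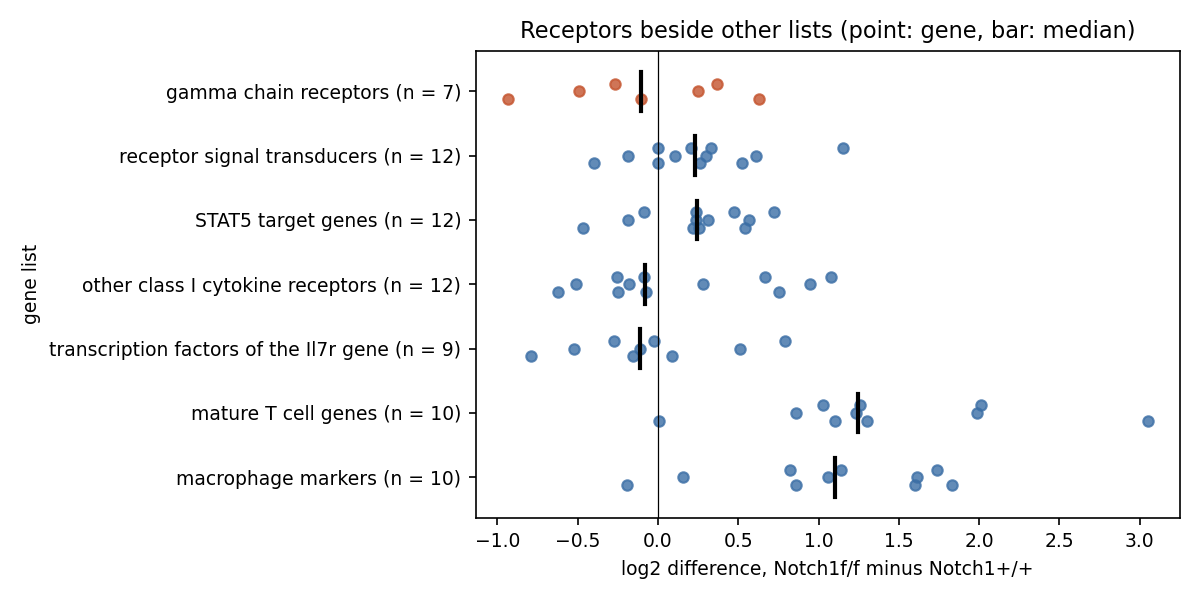
Log2 difference, Notch1f/f minus Notch1+/+, of each gene tested (points) in the receptor family (orange) and in 6 other gene lists (blue), with the list median as a bar. The receptors scatter on both sides of 0 with a median of -0.11, while the medians of the mature T cell and macrophage lists are 1.24 and 1.10. The points include Irs2, Ccr7 and Il6ra, which passed the filter on dim values through the Notch1f/f tumours, and Il9r, which passed through the Notch1+/+ tumours.

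The genes whose pattern over the 6 tumours was most like that of a receptor were taken from all genes tested, by Pearson's r of log2(intensity + 16), as a description. For Il7r they were Mrpl39, a mitochondrial ribosomal protein (r = 0.998), Eny2, a subunit of a histone-modifying complex (0.994), and Rab8a, a GTPase of vesicle traffic (0.991). Each of these varied less than Il7r, for example Mrpl39 from 173 in Notch1+/+ tumour 1 to 336 in Notch1+/+ tumour 3. For Il2ra they were Sim1 (0.990), whose values of 7.2 to 12.9 were near the floor, Nfyb, a subunit of a CCAAT-binding factor (0.990), and Abca1, a cholesterol exporter (0.984). For Il4ra they were Lipa, a lysosomal lipase (0.992), Csnk1a1, a casein kinase (0.992), and Rab6a (0.991). Lipa had 318, 418 and 249 in Notch1+/+ tumours 1, 2 and 3 and 890, 561 and 720 in Notch1f/f tumours 1, 2 and 3. With 6 arrays and 12043 genes, values of r near 1 are found for many patterns, and all points share the scaling of their array.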

How the data were processed

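RNA of 6 thymic tumours was labelled with biotin and hybridised to Affymetrix mouse arrays, 1 per tumour. The deposited values are MAS5 intensities, a linear signal named in the submitters' processing notes without a version. Their trimmed mean was the same on every array, so the authors had scaled them, and no detection calls were used here. Probe sets were named from a table of the array platform. Of 45101 probe sets, 64 controls were left out, and 34945 had 1 symbol, 932 several and 9160 none. After log2(intensity + 16), probe sets with a mean under the 40th percentile (intensity 7.60) were dropped, leaving 27022. Groups were compared across all probe sets in limma 3.58.1 (lmFit, then eBayes with an intensity trend; R 4.3.3), checked on simulated data, with no covariate. The probe set with the highest mean stood for a gene in counts.

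The members and the 16 gene lists were chosen with earlier results of these data known. The naming rule covered all members, the 6 cytokines and up to 4 genes of each list by the smallest p. It also covered the 3 genes most like Il7r, Il2ra and Il4ra. Not every gene under the rule is named here, and other list genes were named after their values were seen. Alternatives were pseudocounts of 1 and 64, other filters, array weights, quantile normalisation, no trend in eBayes, median centring, a threshold of 0.10, averaging the probe sets of a gene, and each tumour left out. Python 3.11.15 and matplotlib 3.10.9 drew the figures.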

Additional observations from a re-analysis of the deposited data

How the results depend on the processing

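No receptor gene passed the threshold under any alternative run. The median difference of the 7 genes ran from -0.25 to 0.29 with tumours left out. The Il7r, Il4ra, Il9r and Il2rb differences kept their sign in every alternative run. Il2ra ran from -0.50 to 0.95, Il21r from -0.79 to 0.17 and Il15ra from -0.37 to 0.29 with a tumour left out, and each changed sign. The ratio of Il7r to Il2ra ran from -1.33 to -0.30. The count of all probe sets past the threshold, 5, became 3 with no filter, 11 with median centring, 27 with array weights, 40 at a threshold of 0.10, and 2 to 14 with a tumour left out (14 lacking Notch1+/+ tumour 3, and 3, 12 and 2 lacking Notch1f/f tumours 1, 2 and 3 in turn). The cause was not tested. Il9r has no value with the filter at the 60th percentile. No scaling moved the median of all probe sets by over 0.1. No paired analysis was possible because the labels give the tumours no shared numbers. The 3 arrays per group limit the precision, and groups of 3 were not searched for single outlying tumours.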
